A study of Mus musculus with 14 samples.

Results

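The genes described here are 38 mouse genes whose products carry out mitosis, taken as a named list of known mitotic genes. The list was chosen with earlier results of these data known. Each was read from 1 probe set, annotated to that gene alone and with the highest mean over the 14 arrays. For Ccnb1 and Cdca8 the annotation held no probe set of that gene alone, and their levels are not analysed here, so 36 of the 38 genes were measured among 12393 genes in all. RNA came from whole mouse eyes at postnatal day 1, 50 ng of it was amplified and labelled with biotin, and levels are log2 intensities. The Snf2h experiment had 4 wildtype and 4 Snf2h lens-conditional knockout (Snf2h cKO) samples, all C57BL/6 newborns. The Brg1 experiment had 3 wildtype and 3 Brg1 conditional knockout (Brg1 cKO) samples of age P1 on a mixed background. Snf2h (Smarca5) and Brg1 (Smarca4) are the ATPases of chromatin remodelling complexes. The labels name no Cre driver, do not say which cells lost Brg1, and give no animal of origin or pooling for a sample; the series text speaks of 4 biological replicates, and p-values measure the spread between these samples, which may in part be technical. By its title the study asked how Snf2h acts in cell cycle exit, differentiation and fibre denucleation in the lens, and the mitosis genes bear on the first of these.

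Mitosis is started by CDK1 bound to A- and B-type cyclins and is run by the Polo-like and Aurora kinases, the spindle checkpoint and the anaphase-promoting complex, a ubiquitin ligase that ends it. The genes are switched on together late in the cell cycle, and their RNA is abundant only in dividing cells. In the newborn lens the anterior epithelium divides and cells leave the cycle as they become fibres. Retinal progenitors and surface epithelium also divide at this age, so a whole-eye level adds up all of them, and in such samples fewer dividing cells and less RNA per cell cannot be told apart.

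No mitosis gene passed the test in either knockout. Called means a Benjamini-Hochberg adjusted p under 0.05 in limma over all 12393 genes. In Snf2h cKO 0 of the 36 were called, where 0.0161% of all genes were called (2 genes), and in Brg1 cKO 0 of the 36, where 1.09% of all genes were called (135 genes). At an unadjusted p under 0.05, 3 of the 36 were higher and 0 lower in Snf2h cKO, where 8.31% of all genes were higher and 8.62% lower. In Brg1 cKO 0 were higher and 1 lower at that p, where 5.45% of all genes were higher and 3.77% lower. As shares, 8.33% of the 36 were higher in Snf2h cKO and 2.78% lower in Brg1 cKO, both near the background. Without Snf2h wildtype replicate 3 the 3 higher genes became 1, Cenpe, beside 7.01% of all genes higher, and without Brg1 cKO replicate 2 the 1 lower gene became 0, beside 4.15% lower. The change was negative for 19 of 36 genes in Snf2h cKO, with a median of -0.027 on the log2 scale, beside 56.5% negative and a median of -0.048 over all genes. Without Snf2h wildtype replicate 3 it was negative for 23 of 36 with a median of -0.040, beside 53.2% and -0.022 over all genes. It was negative for 32 of 36 in Brg1 cKO, 88.9%, with a median of -0.15, beside 47.2% negative and a median of 0.019 over all genes. That lean in Brg1 cKO rested on replicate 2: without it 17 of 36 were negative, 47.2%, with a median of 0.0075, beside 45.3% and 0.031 over all genes.

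**Figure D1:**
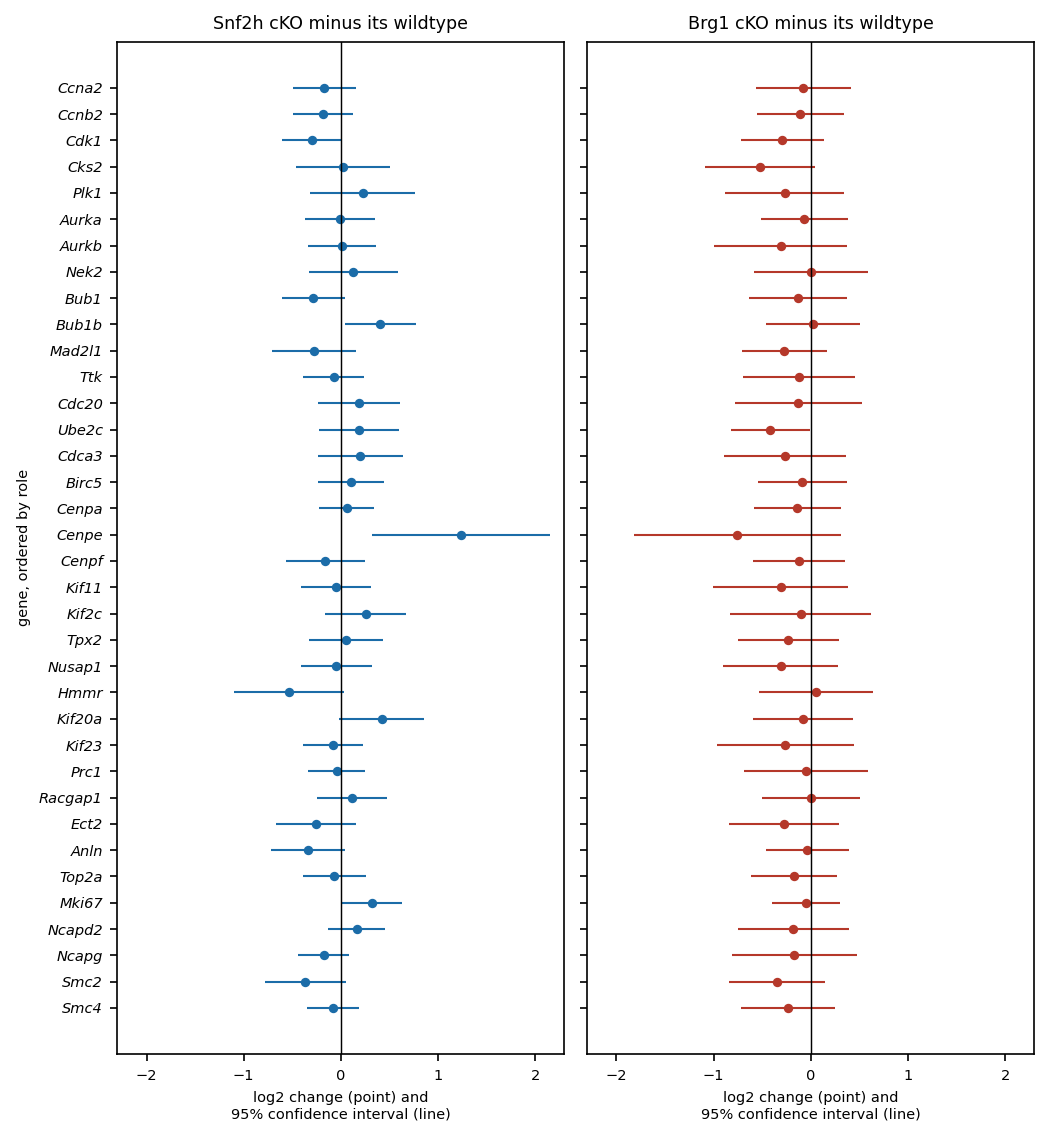
Log2 change of each of the 36 genes in Snf2h cKO (left, 4 against 4 arrays) and Brg1 cKO (right, 3 against 3 arrays), as a point with the 95% confidence interval of the limma fit as a line and genes ordered by role. The interval includes 0 for 33 genes on the left and 35 on the right, and Cenpe has the widest interval in both panels.

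The intervals show what sizes these arrays could have missed. The 95% interval of the change lay within -1 to 1 on the log2 scale for 34 of 36 genes in Snf2h cKO and 33 of 36 in Brg1 cKO. The median distance from the estimate to the interval's end was 0.36 in Snf2h cKO and 0.52 in Brg1 cKO. Changes of such sizes or smaller in whole-eye RNA could have been missed. The intervals are unadjusted, so the adjusted test could miss larger changes too, and Cenpe with a change of 1.23 in Snf2h cKO was not called.

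Some arrays stood apart. Snf2h cKO replicates 1 and 2 were far more alike than any other replicates, with an SD of their log2 differences over all genes of 0.21, beside 0.40 to 0.72 for the other 17 pairs, and whether they are separate samples was not tested. Snf2h wildtype replicate 3 had a Gapdh 3' minus 5' probe set difference of 4.47 on the log2 scale, beside 0.63 to 1.46 on the other 13 arrays, a measure that rises as RNA breaks down. The measure also separated the groups of that experiment, 1.09 to 4.47 on the 4 wildtype arrays and 0.77 to 0.99 on the 4 Snf2h cKO arrays without overlap, and the same difference for Actb was 1.44 to 3.08 and 1.34 to 1.83, with overlap. RNA quality by Gapdh thus moved with genotype in the Snf2h experiment, and its part in the Snf2h cKO changes was not tested. Median intensity was 101 to 114 on all 14 arrays. The targeted genes were not called either, and their probe sets differed. Smarca5 had a change of -0.19 ± 0.25 (SE) in Snf2h cKO with an adjusted p of 0.711 on the probe set used. Its other 2 probe sets gave -0.50 ± 0.16 and 0.31 ± 0.25, with adjusted p 0.188 and 0.538 in limma over all probe sets. On the first of these the levels were 9.45, 9.65, 9.46 and 9.02 in wildtype and 8.90, 8.91, 8.72 and 9.05 in the knockout, so 1 array of the knockout overlapped the lowest wildtype array. Smarca4 had a change of 0.049 ± 0.22 in Brg1 cKO with an adjusted p of 0.969 on the probe set used, and -0.74 ± 0.30 on its other one, with an adjusted p of 0.579 over all probe sets. That second probe set had a change of 0.89 ± 0.17 in Snf2h cKO, with an adjusted p of 0.0888. Where these probe sets lie relative to the deleted parts is not given in the sources used here, so they check no label. On the wildtype arrays the summed intensities were 35808 to 49691 over 10 lens fibre markers and 16871 to 18708 over 13 retinal progenitor markers. Such a sum does not show that each marker was detected.

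Most promoter windows of these genes, 77.1%, held both a CCAAT box and TTTGAA or TTTAAA, as did 10.7% of the windows of all genes. Mitotic promoters are known for CCAAT boxes, bound by NF-Y, and for the cell cycle genes homology region, TTTGAA or the TTTAAA variant, bound by complexes that keep the genes off outside the late cell cycle. Both were searched on both strands in RefSeq windows of build GRCm38.p6, 250 bases before to 50 after the transcription start. The table gave 35 windows for 33 of the 38 genes, with no entry for Tpx2, Ccna2, Aurkb, Smc4 and Kif20a. At least 1 CCAAT stood in 85.7% of the 35 windows and in 37.4% of the 32851 windows of all genes, and at least 2 stood in 57.1% and 11.7%. TTTGAA stood in 77.1% against 17.9%, and TTTAAA in 22.9% against 13.2%. A window with 2 or more CCAAT and either TTTGAA or TTTAAA was found for 48.6% of the 35 and 3.13% of all. In 1 of the 35 windows, that of Cdca8, CCAAT overlapped TTTGAA by some bases. Shown here are the windows of Ccnb2, a B-type cyclin with 3 CCAAT boxes before its start, and of the 4 genes whose groups did not overlap in a knockout, Cdk1, Ube2c, Cenpe and Mki67, written along the gene's own strand with capitals for CCAAT or its reverse complement ATTGG, for TTTGAA or TTCAAA, and for TTTAAA.
Ccnb2, chr9:70421505-70421804, minus strand: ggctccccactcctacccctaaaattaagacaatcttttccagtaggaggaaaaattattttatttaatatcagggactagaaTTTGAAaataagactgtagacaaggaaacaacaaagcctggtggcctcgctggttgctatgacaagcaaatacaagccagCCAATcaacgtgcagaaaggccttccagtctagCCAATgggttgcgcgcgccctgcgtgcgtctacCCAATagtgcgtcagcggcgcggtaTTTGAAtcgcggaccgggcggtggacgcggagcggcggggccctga
Cdk1, chr10:69352863-69353162, minus strand: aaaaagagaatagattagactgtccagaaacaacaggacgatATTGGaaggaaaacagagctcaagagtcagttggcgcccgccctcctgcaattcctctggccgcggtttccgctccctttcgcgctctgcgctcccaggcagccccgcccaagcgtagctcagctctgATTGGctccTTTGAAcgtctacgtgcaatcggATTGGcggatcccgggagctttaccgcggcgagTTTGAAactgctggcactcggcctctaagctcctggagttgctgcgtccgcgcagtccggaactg
Ube2c, chr2:164769679-164769978, plus strand: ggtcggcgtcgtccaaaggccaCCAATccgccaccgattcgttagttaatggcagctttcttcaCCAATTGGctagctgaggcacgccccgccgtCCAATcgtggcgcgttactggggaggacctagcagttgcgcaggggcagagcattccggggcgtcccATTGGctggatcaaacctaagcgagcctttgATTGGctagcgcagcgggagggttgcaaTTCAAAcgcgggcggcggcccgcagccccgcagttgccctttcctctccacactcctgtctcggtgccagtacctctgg
Cenpe, chr3:135212313-135212612, plus strand: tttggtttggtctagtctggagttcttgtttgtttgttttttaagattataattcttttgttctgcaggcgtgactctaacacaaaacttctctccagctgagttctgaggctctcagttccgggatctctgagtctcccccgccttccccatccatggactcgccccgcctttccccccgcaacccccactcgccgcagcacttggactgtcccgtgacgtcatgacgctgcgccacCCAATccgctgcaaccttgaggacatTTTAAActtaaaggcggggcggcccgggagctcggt
Mki67, chr7:135716330-135716629, minus strand: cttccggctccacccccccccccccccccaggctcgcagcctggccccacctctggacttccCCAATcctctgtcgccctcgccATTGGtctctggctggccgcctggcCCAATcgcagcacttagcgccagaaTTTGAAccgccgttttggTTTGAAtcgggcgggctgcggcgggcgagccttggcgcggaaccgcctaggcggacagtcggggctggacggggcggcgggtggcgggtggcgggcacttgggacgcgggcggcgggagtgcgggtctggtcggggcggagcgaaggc
Counted from the start site, whose first base is 1, the CCAAT matches of Ccnb2 began at -87, -54 and -21 and TTTGAA at -167 and 5. In Cdk1 CCAAT began at -208, -80 and -48 and TTTGAA at -71 and -15. Ube2c had 6 CCAAT matches, between -228 and -57, a pair of which at -186 and -183 overlap each other, and 1 TTTGAA at -29. Cenpe had the fewest matches of the 5, 1 CCAAT at -12 and 1 TTTAAA at 15. Mki67 had 3 CCAAT between -188 and -141 and TTTGAA at -116 and -98. A match is a stretch of letters and not a measured binding site.

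**Figure D2:**
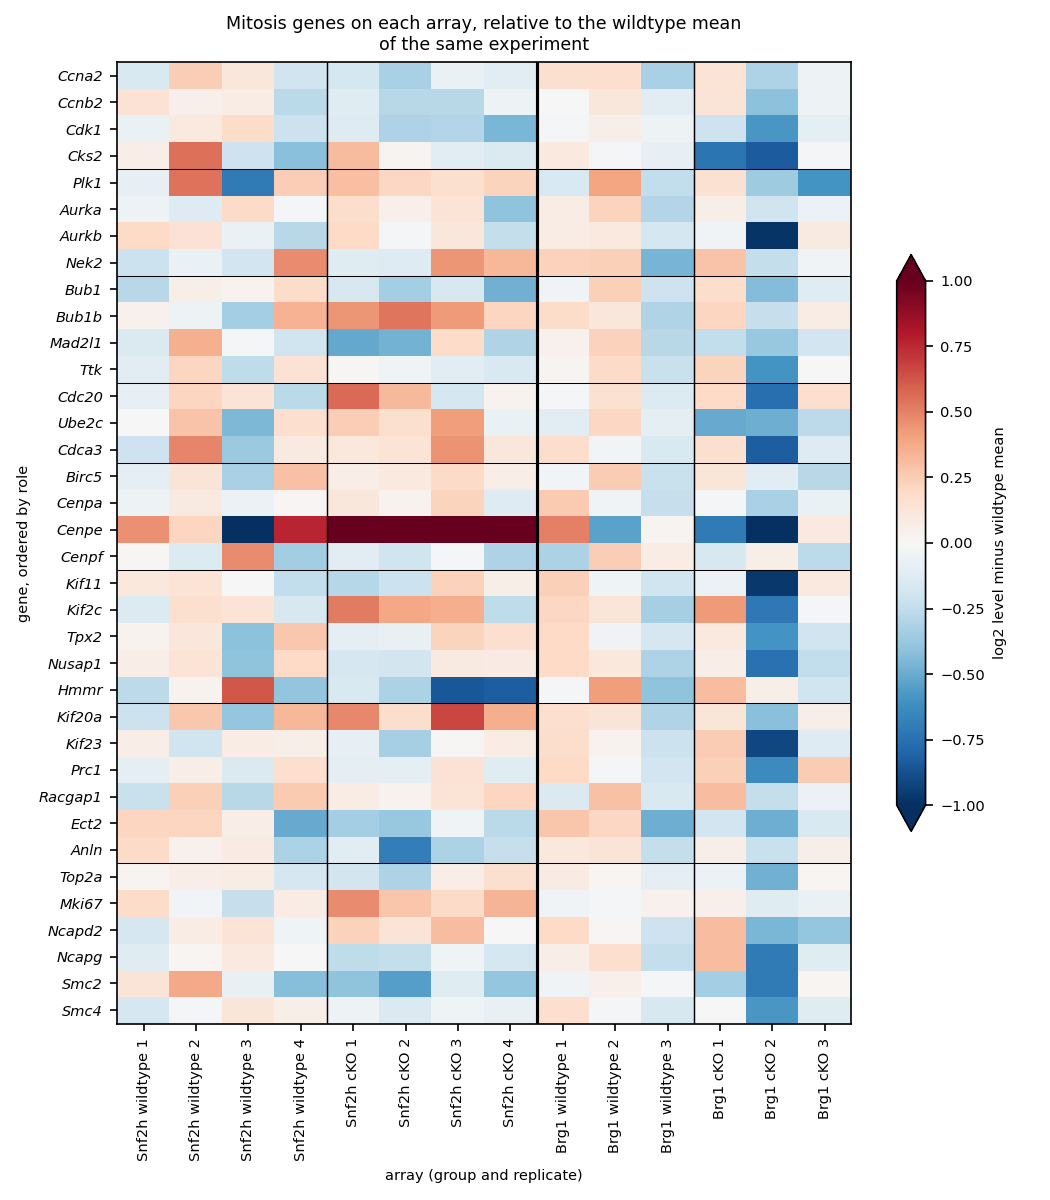
Log2 level of each gene (rows, ordered by role) on each of the 14 arrays (columns), minus the mean of the wildtype arrays of the same experiment, with the colour scale ending at -1 and 1. The column of Brg1 cKO replicate 2 is blue for 34 of 36 genes, and the row of Cenpe is the reddest in Snf2h cKO.

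CDK1, the kinase that starts mitosis, had a negative change in both knockouts, in neither past the test. Cdk1 levels were 10.06, 10.22, 10.31 and 9.92 on Snf2h wildtype replicates 1 to 4 and 10.00, 9.82, 9.84 and 9.67 on Snf2h cKO replicates 1 to 4. The knockout arrays lay below 3 of the 4 wildtype arrays and overlapped the lowest. The change was -0.30 ± 0.14 (SE), 95% interval -0.61 to 0.014, adjusted p 0.308. In the Brg1 experiment Cdk1 was 10.41, 10.48 and 10.37 in wildtype and 10.22, 9.84 and 10.33 in Brg1 cKO. Here the groups did not overlap, and replicate 2 was far below the other knockout arrays. The change was -0.29 ± 0.18 with an adjusted p of 0.74, and -0.15 without replicate 2. Groups without overlap were found for 2 of 36 mitosis genes in each knockout, in Brg1 cKO both lower, beside 14.5% of all genes, 6.25% lower, and in Snf2h cKO both higher, beside 10.3% of all genes, 5.5% higher.

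The other regulators of CDK1 were not called either. Cks2, a small subunit that binds the kinase, was 11.59, 11.48 and 11.41 in Brg1 wildtype and 10.76, 10.66 and 11.48 in Brg1 cKO, where replicates 1 and 2 were low and replicate 3 was within the wildtype range. The change was -0.52 ± 0.24 with an adjusted p of 0.587, and in Snf2h cKO it was 0.023 ± 0.21. The test of the difference between the knockouts gave -0.55 ± 0.34 with an adjusted p of 0.54, so the difference was not resolved. The mitotic cyclins Ccna2 and Ccnb2 had changes of -0.17 and -0.18 in Snf2h cKO and -0.075 and -0.11 in Brg1 cKO. Their groups overlapped in both experiments.

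Where a pair of changes is given for a gene, the first is in Snf2h cKO and the second in Brg1 cKO. Among the mitotic kinases no change reached an unadjusted p under 0.05. Plk1, the Polo-like kinase of the spindle poles and kinetochores, had a change of 0.22 ± 0.24 in Snf2h cKO and -0.27 ± 0.26 in Brg1 cKO. Its Snf2h wildtype levels spread from 7.15 on replicate 3 to 8.40 on replicate 2, wider than the knockout's 8.02 to 8.16, and the change without wildtype replicate 3 was -0.013. Aurka, the spindle pole Aurora kinase, had changes of -0.011 and -0.066. Aurkb, the Aurora kinase of the centromere, had changes of 0.016 and -0.31, and Nek2, a centrosome kinase, of 0.13 and 0.0025. Aurkb in Brg1 cKO was 8.84, 7.90 and 8.96 beside 8.95, 8.98 and 8.70 in wildtype. Only replicate 2 was below the wildtype range there, and without it the change was 0.025.

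The spindle checkpoint holds anaphase until each chromosome is attached. Bub1b, which encodes BUBR1, was 8.31, 8.21, 7.93 and 8.61 in Snf2h wildtype and 8.71, 8.80, 8.69 and 8.48 in Snf2h cKO. The knockout arrays were above 3 of the 4 wildtype arrays and overlapped replicate 4. The change was 0.41 ± 0.16, 95% interval 0.039 to 0.77, p 0.0337 and adjusted p 0.261, so it was not called, and without wildtype replicate 3 it was 0.29 with p 0.0785. In Brg1 cKO it was 0.021 ± 0.21. The kinase gene Bub1 had changes of -0.29 and -0.13, and the mean of its probe sets gave 0.14 in Snf2h cKO. Mad2l1, the MAD2 gene, had changes of -0.28 and -0.27, and Ttk, the MPS1 kinase, of -0.074 and -0.12.

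The 3 measured genes of the anaphase-promoting complex pathway had positive changes in Snf2h cKO and negative ones in Brg1 cKO, none of them called, though the mean of all probe sets turned Cdca3 to -0.16 in Snf2h cKO. Ube2c, the ubiquitin-conjugating enzyme of the complex, was 10.34, 10.66 and 10.36 in Brg1 wildtype and 9.95, 9.97 and 10.19 in Brg1 cKO. All 3 knockout arrays lay below all 3 wildtype arrays, and here replicate 2 was not the lowest. The change was -0.42 ± 0.17, 95% interval -0.82 to -0.013, p 0.0445 and adjusted p 0.52. In Snf2h wildtype it was 8.90, 9.19, 8.46 and 9.07 and in Snf2h cKO 9.15, 9.07, 9.33 and 8.84, a change of 0.19 ± 0.18 between overlapping groups, or 0.041 without wildtype replicate 3. The difference between the knockout effects was -0.61 ± 0.26, p 0.0348 and adjusted p 0.37, where 0.928% of all genes were called in that test and 0 of 36 mitosis genes were. At an unadjusted p under 0.05, 12% of all genes and 2 of 36 mitosis genes, Ube2c and Cenpe, were counted in that test. Cdc20, the activator of the complex, had changes of 0.19 and -0.13, and Cdca3, a regulator of mitotic entry, of 0.20 and -0.27, the first of them 0.078 without Snf2h wildtype replicate 3. Without Brg1 cKO replicate 2 only Ube2c of the 3 stayed negative.

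Cenpe had the largest change in size of the 36 genes in both knockouts, and also the widest intervals. It encodes the kinesin that carries chromosomes to the spindle equator. Its levels were 6.60, 6.36, 4.71 and 6.90 on the Snf2h wildtype arrays, 6.14 ± 0.98 (SD, n = 4), and 7.22, 7.46, 7.53 and 7.30 on the Snf2h cKO arrays, 7.38 ± 0.14 (SD, n = 4). All 4 knockout arrays were above all 4 wildtype arrays. Wildtype replicate 3, the array with the high Gapdh 3' minus 5' difference, was far below the other wildtype arrays. The change was 1.23 ± 0.41, 95% interval 0.32 to 2.15, p 0.0134 and adjusted p 0.21. Without wildtype replicate 3 it was 0.76, with a smaller p of 0.00145 and an adjusted p of 0.168 in limma, still not called. The part of RNA quality in this change was not tested beyond that. In the Brg1 experiment Cenpe was 7.91, 6.87 and 7.43 in wildtype and 6.69, 5.74 and 7.49 in Brg1 cKO, with overlapping groups and a change of -0.76 ± 0.46, or -0.31 without knockout replicate 2. The test of the difference between the knockouts gave -1.99, 95% interval -3.42 to -0.56, p 0.00981 and adjusted p 0.236.

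**Figure D3:**
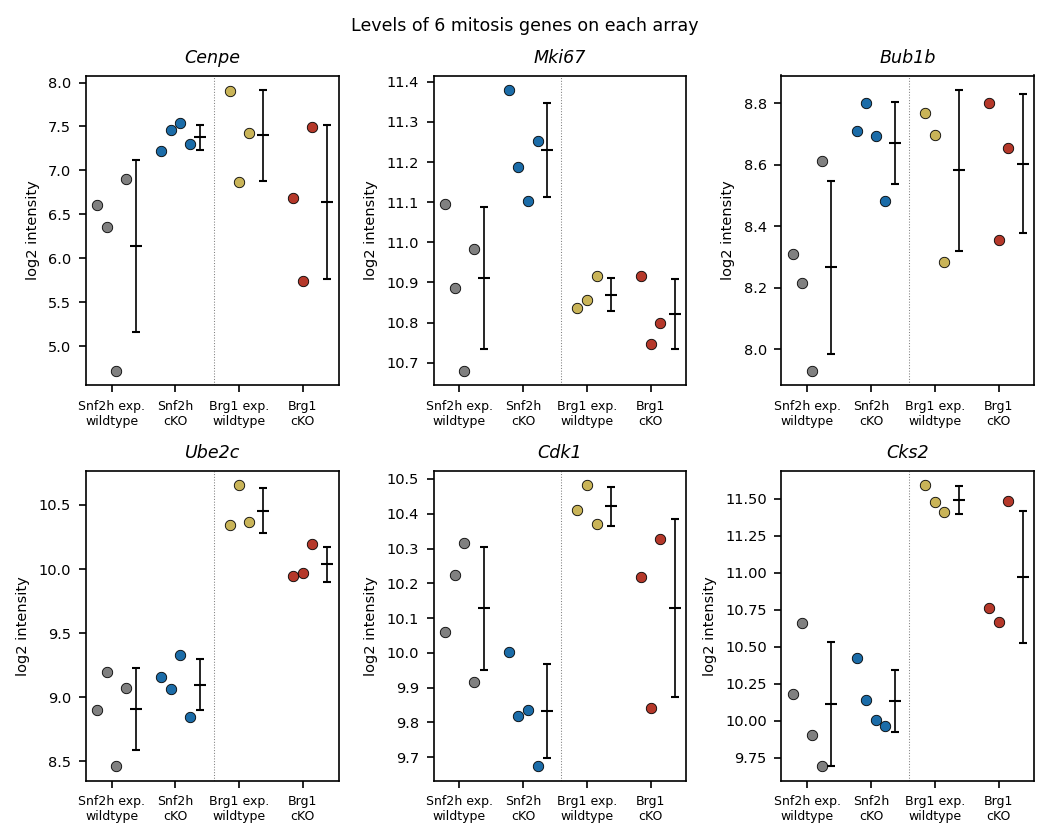
Log2 intensity of Cenpe, Mki67, Bub1b, Ube2c, Cdk1 and Cks2 on each of the 14 arrays (points), with the group mean and SD beside the points (n = 4 in the Snf2h experiment and 3 in the Brg1 experiment) and an axis of its own for each gene. Cenpe and Mki67 do not overlap between Snf2h cKO and its wildtype, and Ube2c and Cdk1 do not overlap between Brg1 cKO and its wildtype.

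The other measured genes of the centromere and the chromosomal passenger complex had small changes. Birc5, the survivin subunit of the passenger complex, had changes of 0.10 and -0.09, with levels from 11.13 to 11.82 over all 14 arrays. Cenpa, the centromeric histone H3 variant, had changes of 0.059 and -0.14. Cenpf, a large kinetochore protein, had changes of -0.16 and -0.12. For all 3 the change was smaller than 0.2 on the log2 scale in both knockouts and the groups overlapped.

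Spindle motors and microtubule proteins varied in sign. Hmmr, a spindle assembly protein, was 9.58, 9.88, 10.47 and 9.45 in Snf2h wildtype and 9.69, 9.53, 9.0 and 9.02 in Snf2h cKO. Wildtype replicate 3 was the highest array and the lower knockout arrays were replicates 3 and 4, with overlap between the groups. The change of -0.53 ± 0.25 had an adjusted p of 0.31 and was -0.33 without wildtype replicate 3, and in Brg1 cKO the change was 0.057 ± 0.25. Kif11, the motor that pushes the spindle poles apart, had changes of -0.051 and -0.31, the second of them 0.018 without Brg1 cKO replicate 2. Kif2c, a microtubule depolymerase of the centromere, had changes of 0.25 and -0.10. Tpx2, the activator of Aurora A on the spindle, had changes of 0.053 and -0.23, and Nusap1, a microtubule-bundling protein, of -0.047 and -0.31.

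The 6 genes of the spindle midzone and cytokinesis, which divide the cell after anaphase, had a median change of -0.062 in Snf2h cKO and -0.063 in Brg1 cKO. Kif20a, the kinesin that brings the passenger complex to the midzone, was 6.92, 7.41, 6.75 and 7.47 in Snf2h wildtype and 7.62, 7.32, 7.81 and 7.50 in Snf2h cKO. The groups overlapped, the wildtype arrays falling into a lower and a higher pair. The change was 0.42 ± 0.19 with an adjusted p of 0.304, and in Brg1 cKO -0.079 ± 0.22. Kif23 and Racgap1, which together form centralspindlin, had changes of -0.08 and 0.11 in Snf2h cKO and -0.26 and 0.0036 in Brg1 cKO. Prc1, the bundler of midzone microtubules, had changes of -0.043 and -0.047. Ect2, the exchange factor that turns on RhoA for the contractile ring, had changes of -0.25 and -0.28, and Anln, a scaffold of that ring, of -0.34 and -0.035.

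Mki67, the proliferation marker Ki-67 that coats mitotic chromosomes, was 11.10, 10.89, 10.68 and 10.98 in Snf2h wildtype and 11.38, 11.19, 11.10 and 11.25 in Snf2h cKO. All 4 knockout arrays were above all 4 wildtype arrays, the closest pair, wildtype replicate 1 and knockout replicate 3, being equal at the decimals shown. The change was 0.32 ± 0.14, 95% interval 0.016 to 0.62, p 0.0413 and adjusted p 0.275, and without wildtype replicate 3 it was 0.24 with p 0.0887. In Brg1 cKO the change was -0.049 ± 0.15, and its levels of 10.92, 10.75 and 10.80 overlapped the wildtype's 10.84, 10.86 and 10.92. Top2a, the topoisomerase that untangles sister chromatids, had changes of -0.067 and -0.17. The condensin subunits Ncapd2, Ncapg, Smc2 and Smc4, which compact mitotic chromosomes, had changes of 0.16, -0.18, -0.36 and -0.079 in Snf2h cKO. In Brg1 cKO they were -0.18, -0.17, -0.34 and -0.24, and all 6 genes of this role were negative, or 5 of 6 without replicate 2. Smc2, which condensins share, was 8.55, 8.80, 8.36 and 7.998 in Snf2h wildtype and 8.03, 7.88, 8.30 and 8.04 in the knockout, with overlap.

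The score of an array, the mean log2 level of the 36 genes minus the mean of its experiment's wildtype arrays, was lowest on 1 array of the Brg1 experiment. In the Snf2h experiment scores were -0.027, 0.14, -0.10 and -0.0091 on the wildtype arrays and 0.051, -0.049, 0.11 and -0.044 on the knockout arrays, fully intermixed. In the Brg1 experiment they were 0.090, 0.11 and -0.20 on the wildtype arrays and 0.032, -0.52 and -0.083 on the knockout arrays. Brg1 cKO replicate 2 was below the wildtype mean for 34 of 36 genes and was the lowest of the 6 arrays for 26 of 36, 72.2%, where it was the lowest for 25.3% of all genes. Brg1 wildtype replicate 3 was next, below the wildtype mean for 33 of 36 genes. The 2 other Brg1 knockout arrays lay between the wildtype arrays. In the Snf2h experiment wildtype replicate 3 was the lowest of 8 arrays for 13 of 36 genes, 36.1%, where it was the lowest for 18.8% of all genes.

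**Figure D4:**
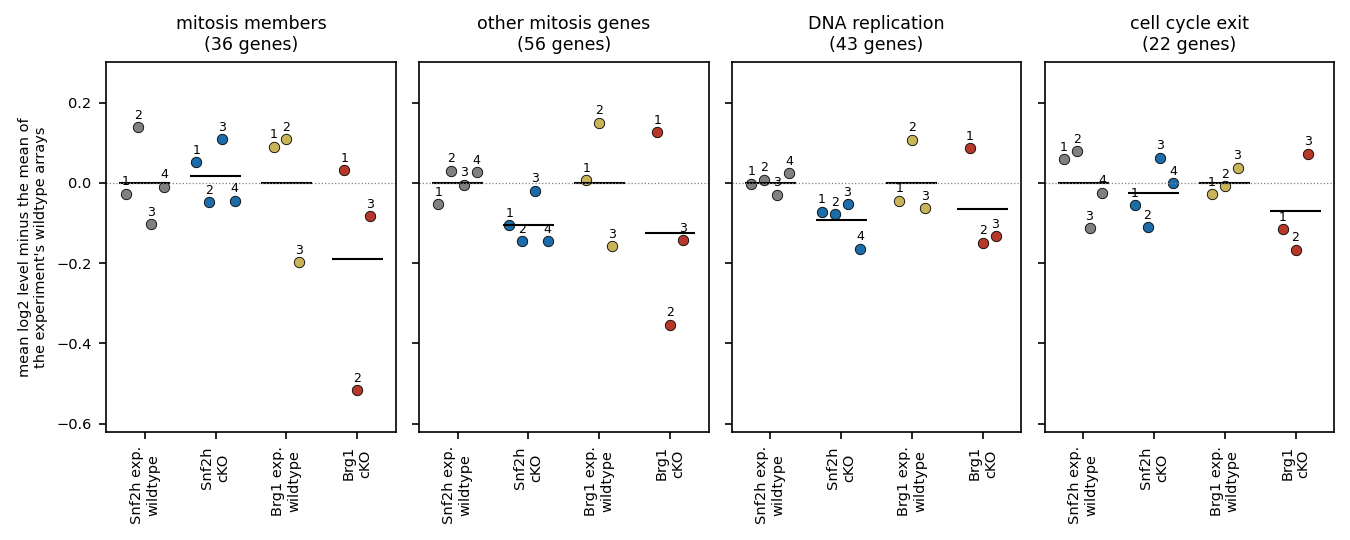
Score of each array (points, numbered by replicate) for 4 gene lists, as the mean log2 level of the list minus the mean of the experiment's wildtype arrays, with group means as lines. Brg1 cKO replicate 2 is the lowest point for the 36 mitosis genes at -0.52 and for the 56 other mitosis genes at -0.35.

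Brg1 cKO replicate 2 also differed from the other knockout arrays in marker genes of cell types. Over 22 macrophage and neutrophil markers, all of them measured, its score was 2.19, beside 1.01 and 1.27 on replicates 1 and 3. The summed intensity of these markers was 2003 to 2565 on Brg1 wildtype arrays and 6954 to 19164 on Brg1 cKO arrays, the highest on replicate 2. In the knockout 4 of the 22 were called higher, S100a8, S100a9, Cd14 and Itgb2, where 0.613% of all genes were called higher. The lens fibre score of replicate 2 was -1.29, beside -2.77 and -3.55, over 10 of 15 markers measured. The summed intensities of the fibre markers were 45008 to 49691 in wildtype and 8995 to 29387 in the knockout. Of those 10 markers 3 were called lower, Gja3, Dnase2b and Mip, where 0.476% of all genes were called lower. At an unadjusted p under 0.05, 9 of the 10 were lower, beside 3.77% of all genes. Without replicate 2, 8 of the 10 were called lower, beside 117 of all 12393 genes. The retinal progenitor score of replicate 2 was -0.42, beside 0.074 and -0.19, over 13 of 16 markers measured. The summed intensities of these were 17871 to 18708 in wildtype and 15129 to 20654 in the knockout. Of the 13, 0 were called, where 1.09% of all genes were. On that array all 13 progenitor markers were below the wildtype mean. Of the other lists in Brg1 cKO, the lens epithelium markers had 1 of 12 called, Prox1, lower, or 4 of 12 lower without replicate 2. The surface epithelium markers had 2 of 19 called, Krt16 higher and Krt12 lower, or 1 higher and 3 lower without replicate 2. The erythroid, endothelial and stromal markers had 0 called. The endothelial score of replicate 2 was 0.76, beside -0.16 and 0.37 on replicates 1 and 3, and its surface epithelium score was 0.44, beside -0.67 and 0.066, both the highest of the 6 arrays. The Gapdh 3' minus 5' difference of replicate 2 was 0.96, beside 0.63 to 0.74 on the other Brg1 arrays, while that of Actb was 1.37, beside 1.39 and 1.05 on knockout replicates 1 and 3 and 1.002 to 1.12 in wildtype. No marker was listed at 0 on any array, which cannot show that it was detected, as no detection calls were used. In the Snf2h experiment the immune markers gave sums of 3997 to 7153 in wildtype and 3525 to 6554 in the knockout. Of the 22, 0 were called there, where 0.0161% of all genes were. The part of cell composition or RNA quality in the mitosis gene levels was not tested.

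A longer list of 78 other mitosis genes, of which 56 were measured, had 0 called in either knockout, and the difference in balance between it and the 36 was not tested. In Snf2h cKO 38 of the 56, 67.9%, had a negative change with a median of -0.13, beside 56.5% and -0.048 over all genes. At an unadjusted p under 0.05, 12 of the 56 were lower and 2 higher, and 0 of the 36 were lower and 3 higher. Of all genes 8.62% were lower and 8.31% higher at that p. Those with the smallest p were Cenpk, a centromere protein, with a change of -0.56 ± 0.12, Haspin, a histone H3 kinase, with -0.67 ± 0.20, Cdca5, the cohesin protector sororin, with -0.54 ± 0.17, and Ncapg2, a condensin II subunit, with -0.79 ± 0.25. Their adjusted p-values lay between 0.156 and 0.205. Cenpk was 9.31, 9.26, 9.25 and 9.05 in Snf2h wildtype and 8.61, 8.82, 8.61 and 8.58 in the knockout, without overlap. Groups did not overlap for 9 of the 56 in Snf2h cKO, in either direction, beside 10.3% of all genes. Without Snf2h wildtype replicate 3, 6 of the 56 were lower and 2 higher at an unadjusted p under 0.05. The lower ones were then 10.7%, beside 7.02% of all genes lower. In Brg1 cKO 38 of the 56 were negative, 67.9%, with a median of -0.10, beside 47.2% and 0.019 over all genes. Without replicate 2, 24 of 56 were negative, 42.9%, with a median of 0.021, beside 45.3% and 0.031 over all genes. With all Brg1 arrays the smallest p belonged to Depdc1a with -0.70 ± 0.16 and Wee1, the kinase that holds CDK1 inactive, with -0.52 ± 0.19. Next came Stil, a centriole duplication protein, with -0.63 ± 0.24, and Cenph, a centromere protein, with -0.73 ± 0.34. Without Brg1 cKO replicate 2 these were -0.65, -0.38, -0.39 and -0.36 in the same order. The adjusted p of Depdc1a was 0.14 and those of the other 3 lay between 0.436 and 0.608. Brg1 cKO replicate 2 was the lowest of its experiment for 34 of these 56 genes, 60.7%, where it was the lowest for 25.3% of all genes.

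DNA replication and cell cycle exit genes were not called either. Of 48 DNA replication genes 43 were measured and 0 were called in either knockout, with medians of -0.060 in Snf2h cKO and -0.076 in Brg1 cKO. At an unadjusted p under 0.05, 8 of the 43 were lower and 0 higher in Snf2h cKO, beside 8.62% of all genes lower. Without Snf2h wildtype replicate 3, 4 were lower, 9.3%, and 0 higher, beside 7.02% of all genes lower. In Brg1 cKO 1 was lower and 0 higher at that p, beside 3.77% of all genes lower. Brg1 cKO replicate 2 was the lowest array for 19 of the 43, 44.2%, beside 25.3% of all genes. Its score was -0.15, close to the -0.13 of replicate 3. Of 22 cell cycle exit genes, all measured, 0 were called in either knockout and the medians were -0.066 and -0.13. Brg1 cKO replicate 2 was the lowest array for 11 of these 22, beside the same 25.3% of all genes.

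Of the 36 genes 18 had more than 1 probe set, and the 27 probe sets left aside gave both signs. None of the 63 probe sets was called in limma over all probe sets, in either knockout. In Snf2h cKO 16 of the 27 had the sign of the probe set used and 11 the opposite sign, and at an unadjusted p under 0.05 there were 7 higher and 2 lower, where 13.4% of all such extra probe sets were higher and 6.31% lower. Without Snf2h wildtype replicate 3 there were 3 higher. The second Cdc20 probe set was 7.90, 8.18, 8.20 and 8.62 in Snf2h wildtype and 9.25, 9.001, 9.01 and 8.80 in the knockout. Its change was 0.79 ± 0.18 with p 0.00136 and adjusted p 0.105, and 0.79 also without wildtype replicate 3. The change of Cdc20 was 0.19 on the probe set used and 0.24 on the third. The change of Ncapg was 0.95 on its second probe set and -0.18 on the one used, and that of Smc4 was 0.48 on each of a pair and -0.079 on the one used. Without Snf2h wildtype replicate 3 that pair gave 0.39 and 0.22, and the second Ncapg probe set 0.67. A further Kif2c probe set gave 1.04 with p 0.00832, or 0.78 without that array, and the one used gave 0.25. The 2 lower probe sets were of Kif11, at -0.74 with p 0.0117, and of Ccna2, at -0.31 with p 0.0459. Without that array they gave -0.65 and -0.25, and the ones used for these genes gave -0.051 and -0.17. In Brg1 cKO 21 of the 27 were negative, 77.8%, where 56.7% of all such probe sets were, and 4 had an unadjusted p under 0.05, all lower, for Cks2, Kif11, Kif2c and Smc4, where 3.69% of all such probe sets were lower at that p. Without Brg1 cKO replicate 2 those 4 stayed negative, at -0.51, -0.75, -0.50 and -0.53 in the same order. Several others of the 27 turned positive without it, such as those of Ccna2 (-0.14 to 0.11), Nusap1 (-0.54 to 0.14) and Tpx2 (-0.044 to 0.14). The lean of these probe sets thus rested in part on replicate 2. The change of Cks2 was -0.71 ± 0.29 on its second probe set with an adjusted p of 0.593.

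The wildtype eyes of the 2 experiments stood apart for some of these genes. For 12 of the 36 genes the Brg1 experiment's wildtype arrays were all above those of the Snf2h experiment, where 18.9% of all genes were, and for 4 they were all below, where 26.2% of all genes were. The widest gaps upward were Ube2c at 1.55, Cks2 at 1.38, Smc2 at 1.28 and Kif20a at 1.27 on the log2 scale. Hmmr at -1.45, Cenpf at -0.88 and Ccnb2 at -0.74 lay the other way, and genes of 1 process thus lay on both sides. The Gapdh 3' minus 5' difference also separated these arrays, 1.09 to 4.47 in Snf2h wildtype and 0.68 to 0.74 in Brg1 wildtype, as did that of Actb, 1.44 to 3.08 and 1.002 to 1.12. Mouse background, experiment, processing and RNA quality cannot be told apart in these differences.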

How the data were processed

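RNA of 14 whole-eye samples was measured on single-colour arrays. The deposited values are probe set intensity on a linear scale, made by the authors with RMA per the submitters' processing notes, with no version given and no word on whether both experiments were processed together. The log2 of the deposited intensity was taken with no offset, scaling or filter. Of 22690 probe sets 64 were controls, 20380 had 1 gene in the platform annotation, 691 several and 1555 none, and those with 1 gene were used, by the highest mean per gene (12393 genes). All 36 measured symbols matched RefSeq by gene ID. Each knockout was compared with its own wildtype in limma 3.58.1 (R 4.3.3), and the difference between knockouts as an interaction contrast over 14 arrays, with Benjamini-Hochberg adjustment over all genes and a threshold of 0.05. Errors are moderated SEs. The number of arrays limits the precision.

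The members and lists were chosen with earlier results of these data known. All members are named, and of the other mitosis genes up to 4 per knockout with the smallest p. Lists were not tested. Scripts were tested on simulated data. Alternatives were quantile normalization, a filter on dim probe sets, the mean of a gene's probe sets, another prior, array weights, a single fit, a replicate block, averaging the near-identical arrays and leaving out each array.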

Additional observations from a re-analysis of the deposited data

Results flagged for a closer look

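In 3 of 74 groups of 4 arrays examined, 1 array lay far from the other 3, where chance gives about 1 in 20 groups, so this number of cases is no more than chance gives. Kif23 in Snf2h wildtype was 8.92 on replicate 2, the lowest, beside 9.18 to 9.19 on the others. Cdca3 in Snf2h cKO was 11.07 on replicate 3, the highest, beside 10.73 to 10.76. Prc1 in Snf2h cKO was 10.80 on the same replicate 3, beside 10.53 to 10.55.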

How the results depend on the processing

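Members, lists and alternatives were those named in the processing, and 4 alternatives were added after seeing the data: the lists without Brg1 cKO replicate 2, the lists without Snf2h wildtype replicate 3, and the extra probe sets and the counts at an unadjusted p without those arrays. The count of mitosis genes called stayed at 0 in both knockouts and in the test of their difference under every alternative run, limma throughout. All 36 passed the filter on dim values. The counts over all genes moved. In Snf2h cKO 2 genes became 1 with quantile normalization, 5 once dim probe sets were dropped, 7 with a trended robust prior, 230 with array weights, 4 in 1 fit over all 14 arrays, 0 with the near-identical arrays averaged and 0 to 60 without 1 array. In Brg1 cKO 135 became 19 without dim probe sets, 209 with array weights, 260 in the single fit and 26 to 215 without 1 array. In the test of the difference 115 became 13 without dim probe sets, 174 with array weights and 68 to 162 without 1 array. Samples with the same replicate number did not deviate together (r of -0.27 to 0.099 over all genes in the Snf2h experiment and -0.012 to 0.088 in the Brg1 experiment). Not every sample correlated best with its own number. With so few arrays this cannot show whether samples were paired, and the labels state no pairing. With a replicate block 0 genes were called in Snf2h cKO and 49 in Brg1 cKO, with 0 mitosis genes in each. The mitosis genes with a negative change in Brg1 cKO ranged from 28 to 33 over the settings that kept all arrays and from 17 to 36 without 1 array, lowest without knockout replicate 2. Of 1312 alternative values for single genes 1221 kept their direction, none became called, and 91 changed sign for 41 results, all of them with a main change of at most 0.31 in size. Quantile normalization changed the sign in Snf2h cKO for Aurkb (-0.025) and in Brg1 cKO for Nek2 (-0.032). The mean of all probe sets did so in Snf2h cKO for Bub1 (0.14), Cdca3 (-0.16), Tpx2 (-0.0088), Nusap1 (0.29), Ncapg (0.39) and Smc4 (0.29) and in Brg1 cKO for Cenpf (0.14), Hmmr (-0.15), Racgap1 (-0.0049) and Cdca5 (-0.0094). Array weights did so in Snf2h cKO for Cks2 (-0.00033), Aurka (0.11), Aurkb (-0.0014), Nek2 (-0.0073), Tpx2 (-0.083) and Depdc1a (-0.033) and in Brg1 cKO for Cdc20 (0.026), Kif2c (5.5836e-05), Hmmr (-0.00099), Kif20a (0.011), Prc1 (0.11), Anln (0.021) and Cdca5 (-0.085). Averaging Snf2h cKO replicates 1 and 2 did so in Snf2h cKO for Cks2 (-0.026), Aurkb (-0.0098) and Kif11 (0.015). Leaving out 1 array in turn gave ranges on both sides of 0 in Snf2h cKO for Aurka (-0.073 to 0.12), Aurkb (-0.075 to 0.10), Birc5 (-0.0039 to 0.20), Cks2 (-0.12 to 0.21), Depdc1a (-0.096 to 0.23), Kif11 (-0.15 to 0.027), Kif23 (-0.15 to 0.0027), Nusap1 (-0.18 to 0.020), Plk1 (-0.013 to 0.40), Prc1 (-0.11 to 0.014), Top2a (-0.14 to 0.014) and Tpx2 (-0.085 to 0.14). Leaving out 1 array in turn gave ranges on both sides of 0 in Brg1 cKO for Anln (-0.15 to 0.057), Aurka (-0.21 to 0.045), Aurkb (-0.51 to 0.025), Birc5 (-0.20 to 0.037), Bub1 (-0.28 to 0.027), Bub1b (-0.13 to 0.15), Ccna2 (-0.24 to 0.040), Ccnb2 (-0.23 to 0.039), Cdc20 (-0.29 to 0.19), Cdca3 (-0.48 to 0.014), Cdca5 (-0.087 to 0.21), Cenpf (-0.28 to 0.0012), Cenpk (-0.29 to 0.023), Hmmr (-0.14 to 0.27), Kif11 (-0.51 to 0.018), Kif20a (-0.23 to 0.091), Kif23 (-0.52 to 0.060), Kif2c (-0.37 to 0.20), Ncapg (-0.41 to 0.096), Ncapg2 (-0.21 to 0.059), Nek2 (-0.23 to 0.12), Prc1 (-0.20 to 0.25), Racgap1 (-0.15 to 0.15) and Ttk (-0.30 to 0.11). Of these sign changes 18 came without Brg1 cKO replicate 2 and 45 without another array. The causes were not tested. No scaling moved the median of all genes by over 0.1. No detection calls were used, and dim probe sets, whose signal is near background, carry compressed changes.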
